A study of Mus musculus with 4 samples.

Results

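The genes described here are the protein-coding neighbours of Tcf20 on mouse chromosome 15. They were chosen by position and depth: a start between 75 and 90 Mb on chromosome 15 in the deposited annotation and a summed count of at least 40 over the 4 libraries. Of 264 protein-coding genes in that window, 32 had too few counts and 6 were left out by name (Tcf20 itself, Rpl3, Mfng, Atf4, Ep300 and Ndufa6), which left 226 members of 22084 genes in all. The summed count is a measured value, but it does not use the difference between genotypes. The members just inside the limit were Cyp2d26 with 41 counts, Ribc2 with 47 and Tnfrsf13c with 53, and the genes just outside were Arhgap8 with 36 and Tmprss6 with 31. The first member starts at 75044018 and the last at 89582533, so the members lie on both sides of Tcf20 (ENSMUSG00000041852, 82808629 to 82912134, minus strand, GRCm38).

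The 4 libraries hold reads counted per gene from telencephalic tissue of mouse embryos of stage E13.5, all of the mixed strain B6D2F2. KO26F and KO23M are labelled TCF20-/-, WT25F is labelled TCF20+/+, and WT22M is called wild type in its title and TCF20+/- in its genotype field. WT25F and WT22M are called carriers, because whichever label of WT22M is right, both embryos kept an intact copy of Tcf20. The labels name telencephalon in the titles and cerebral cortex in the extraction protocol. They do not give the deleted part of Tcf20, the litters or the number of embryos per library, so n counts libraries and p-values measure the spread between them. The study asks how Tcf20 acts in the formation of neurons in the mouse brain. The comparison here asks whether the chromosome around Tcf20 differed between the genotypes.

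Tcf20 encodes a large nuclear protein related to Rai1, and changes in its human counterpart are known from neurodevelopmental disorders. Its neighbours are a mixed set of genes with unrelated tasks, among them chromatin proteins such as Cbx7 and L3mbtl2, synaptic proteins such as Shank3, and the signalling ligand Wnt7b. Genes that lie close together on a chromosome are mostly inherited together, so in a mixed strain the neighbours of a targeted gene tend to come from the same parental chromosome as the targeted allele. Which parental copies of the region these embryos carried was not analysed here.

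Depth was even, from 17791641 counts in WT22M to 18509743 in KO23M, and the members together held 2.09% of all counts in KO26F and 2.16% in KO23M, against 2.12% in WT25F and 2.2% in WT22M. The letter at the end of each title followed sex: the X-inactivation RNA Xist was at 519 CPM (counts scaled to the library total) in KO26F and 450 CPM in WT25F, and at most 0.169 CPM in KO23M and WT22M. Tcf20 itself was at 97.0 and 105 CPM in the KO libraries and 117 and 113 CPM in the carriers (log2 fold change -0.18, SE 0.10, edgeR adjusted p = 0.9997). Since the deleted part is unknown, this does not check the genotype labels. The 12 telencephalon markers (Emx1, Pax6 and others) had counts in every library, as did the 8 diencephalon markers. The telencephalon markers summed to 3279 and 3059 CPM in the KO libraries and 2856 and 3014 CPM in WT25F and WT22M. Of the marker lists of other cell types, choroid plexus summed to 1005 and 784 CPM in the KO libraries against 948 and 202 CPM in WT25F and WT22M, and diencephalon to 44.9 and 41.0 CPM in the KO libraries against 102 and 40.1 CPM. Marker sums are scaled to the library total, and CPM values of single genes from Tcf20 on are scaled by the trimmed mean of M-values (TMM).

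Between the KO libraries and the carriers, none of the 226 members passed an adjusted p of 0.05 in edgeR's quasi-likelihood test. Over all 16252 genes tested, 10 passed, which is 0.0615%. Rpl3, which lies in the same window but was left out of the members by name, was among these 10 and is described below. The smallest adjusted p among the members was 0.693, for Cbx7. At an unadjusted p under 0.05 there were 14 members (6.19%), against 2.86% of all genes. With DESeq2 also 0 members passed, and 4 were at an unadjusted p under 0.05. The share of all genes at that level with DESeq2 was not counted, so those 4 have no background beside them. The members' median log2 fold change was -0.02, beside 0.00 for all genes tested. A log2 fold change under 0.2 in size was found for 181 members (80.1%), beside 74.9% of all genes. The share was 79.3% of autosomal protein-coding genes outside the window and 75% of those elsewhere on chromosome 15. Beyond 0.5 lay 12 of the 226 members, beside 1171 of all 16252 genes. Of the autosomal protein-coding genes outside the window, 699 of 13371 lay beyond 0.5. In all, 98 members had a positive log2 fold change and 128 a negative one.

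A second fit took the title letter, which tracks sex, as a block, so that KO26F was set against WT25F and KO23M against WT22M with 1 residual degree of freedom. In it 4 members passed, among them Cenpm, higher in the KO libraries, and Cbx7 and Mgat3, lower. The background in this fit was 0.757%, or 123 of 16252 genes. At an unadjusted p under 0.05 it had 31 members (13.7%), against 6.82% of all genes. With an offset for GC content added, 5 members passed, against 0.788% of all genes, the added one being Phf21b. Cenpm, Cbx7 and Mgat3 passed only with the block, with or without that offset, and they are described first.

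**Figure D1:**
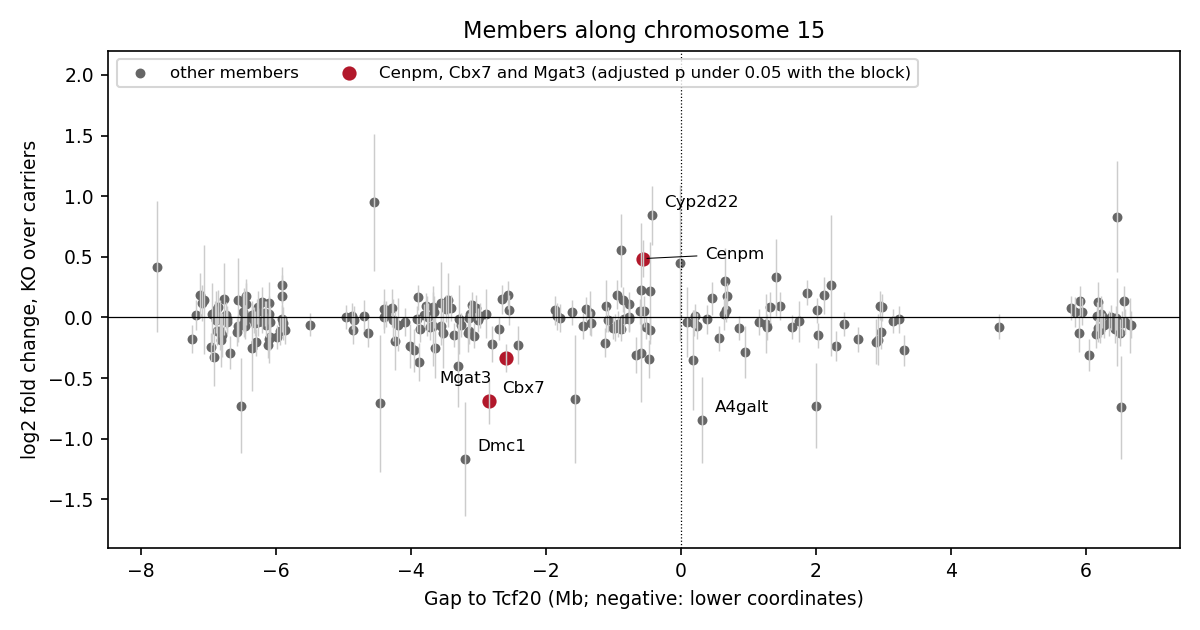
Log2 fold change of KO over carriers (vertical axis, bars are the SE of the fit) for the 226 members by their gap to Tcf20 in Mb (horizontal axis, dotted line at Tcf20). Most members sit within 0.2 of 0; the red points are Cenpm on the higher side and Mgat3 and Cbx7 on the lower side, which were among the members called once the title letter was blocked.

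Cenpm, a protein of the centromere on which chromosomes attach to the spindle (ENSMUSG00000068101, 82233779 to 82244747, minus strand, 0.564 Mb before Tcf20), stood at 24.6 and 28.2 CPM in KO26F and KO23M. The carriers WT25F and WT22M had 16.4 and 21.3 CPM. The arms did not overlap, and the log2 fold change was 0.49 (SE 0.15, edgeR adjusted p = 0.9997 without and 0.0168 with the block). Both pairs had the same sign, at 0.60 (counting interval 0.38 to 0.81) for KO26F over WT25F and 0.40 (0.20 to 0.59) for KO23M over WT22M. Without WT25F the log2 fold change was 0.30 and without WT22M it was 0.69.

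Cbx7, a reader of the repressive histone mark of Polycomb complexes (ENSMUSG00000053411, 79915807 to 79971119, minus strand, 2.84 Mb before Tcf20), was at 7.98 and 7.67 CPM in KO26F and KO23M, against 13.9 and 11.4 CPM in WT25F and WT22M. The KO libraries lay close together and below both carriers (log2 fold change -0.69, SE 0.18, edgeR adjusted p = 0.693 without and 0.0162 with the block). Its annotated span shares 100 bp with Apobec3, a cytidine deaminase gene on the other strand, which had 10.3 and 9.10 CPM in the KO libraries and 7.56 and 11.4 CPM in the carriers. Mgat3, the enzyme that adds the bisecting N-acetylglucosamine to glycoproteins (ENSMUSG00000042428, 80173721 to 80215519, plus strand, 2.59 Mb before Tcf20), was at 90.3 and 75.7 CPM in the KO libraries and 116 and 93.7 CPM in the carriers. Here the highest KO library stood only just below the lowest carrier. The log2 fold change was -0.34 (SE 0.12, edgeR adjusted p = 0.9997 without and 0.00356 with the block). It was -0.18 without WT25F, -0.21 without KO23M, -0.47 without KO26F and -0.48 without WT22M. The pairs gave -0.35 (counting interval -0.44 to -0.26) and -0.31 (-0.41 to -0.21). Rpl3, a ribosomal protein gene left out of the members by name, lies between these genes at 80077794 to 80091868 and had 428 and 482 CPM in the KO libraries against 834 and 680 CPM in the carriers (edgeR adjusted p = 0.00274).

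The RefSeq table of promoters on GRCm38.p6 holds 168 windows of 300 bases for 127 of the 226 members. Those of Cbx7 and Cenpm are shown because these genes passed with the block and differed in direction, Cbx7 lower and Cenpm higher in the KO libraries. Each window runs from 250 bases before to 50 after the RefSeq start. Capitals mark matches, on either strand, to the motifs searched. GGGCGG is known as the GC box and CACGTG as an E-box. The other motifs were CCAAT, the core promoter motif TATAAA, and lastly TTTGAA.
Cbx7 chr15:79932597-79932896, minus strand: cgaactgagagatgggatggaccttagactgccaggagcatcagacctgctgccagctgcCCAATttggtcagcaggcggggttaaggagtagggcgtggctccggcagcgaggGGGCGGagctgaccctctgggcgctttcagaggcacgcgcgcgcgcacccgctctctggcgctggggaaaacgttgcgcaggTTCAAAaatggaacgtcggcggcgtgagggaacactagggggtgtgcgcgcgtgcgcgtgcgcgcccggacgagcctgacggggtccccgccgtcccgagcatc
Cenpm chr15:82244287-82244586, minus strand: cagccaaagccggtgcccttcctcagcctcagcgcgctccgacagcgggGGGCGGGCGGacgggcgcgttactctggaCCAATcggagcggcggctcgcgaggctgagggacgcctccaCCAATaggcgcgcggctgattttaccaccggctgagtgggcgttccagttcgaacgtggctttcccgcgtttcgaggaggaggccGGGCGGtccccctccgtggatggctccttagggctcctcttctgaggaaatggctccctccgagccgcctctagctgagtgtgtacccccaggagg
The Cbx7 window holds 33 CpG sites at a GC content of 67.3%, with 1 GGGCGG, 1 CCAAT and 1 TTTGAA, and it lies 38473 bp inside the gene as deposited. The Cenpm window holds 31 CpG sites at 67.7% GC, with 3 GGGCGG, of which 2 overlap each other, and 2 CCAAT. The GC box occurred in 66.1% of the members' windows and 35.7% of all 32851 windows, and CCAAT in 38.7% and 37.4%. TATAAA occurred in 7.14% of the members' windows and 13.6% of all, CACGTG in 10.1% and 7.15%, and TTTGAA in 9.52% and 17.9%. The members' windows had a median GC content of 61.5%, beside 52.7% for all windows. These matches are letters in a window and not tested sites. Unlike the members, the full set of windows was not limited to protein-coding genes or by counts, so the sets are not matched.

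Other members whose arms lay apart did not pass in either fit. Cyp2d22, a cytochrome P450 of drug and lipid metabolism 0.428 Mb before Tcf20, stood at 5.86 and 6.90 CPM in the KO libraries and 3.42 and 3.70 CPM in the carriers. The gap between the arms was wider than the spread within each, but the log2 fold change of 0.84 (SE 0.24) had an edgeR adjusted p of 0.898 without and 0.0813 with the block. Phf21b, a PHD finger protein expressed in the developing brain 1.87 Mb after Tcf20, had 302 and 340 CPM in the KO libraries against 267 and 292 CPM in the carriers (log2 fold change 0.20, SE 0.10, edgeR adjusted p = 0.9997 without and 0.0876 with the block). A4galt, which makes the glycolipid Gb3, had 1.57 and 1.32 CPM in the KO libraries and 2.54 and 2.67 CPM in the carriers (log2 fold change -0.85, SE 0.35). Dmc1, the recombinase of meiosis, had the lowest log2 fold change of all members, -1.17 (SE 0.47). It rested on 0.760 and 0.822 CPM in the KO libraries against 2.43 and 1.14 CPM in the carriers, so WT25F alone was far from the rest, and without WT25F the log2 fold change was -0.53.

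**Figure D2:**
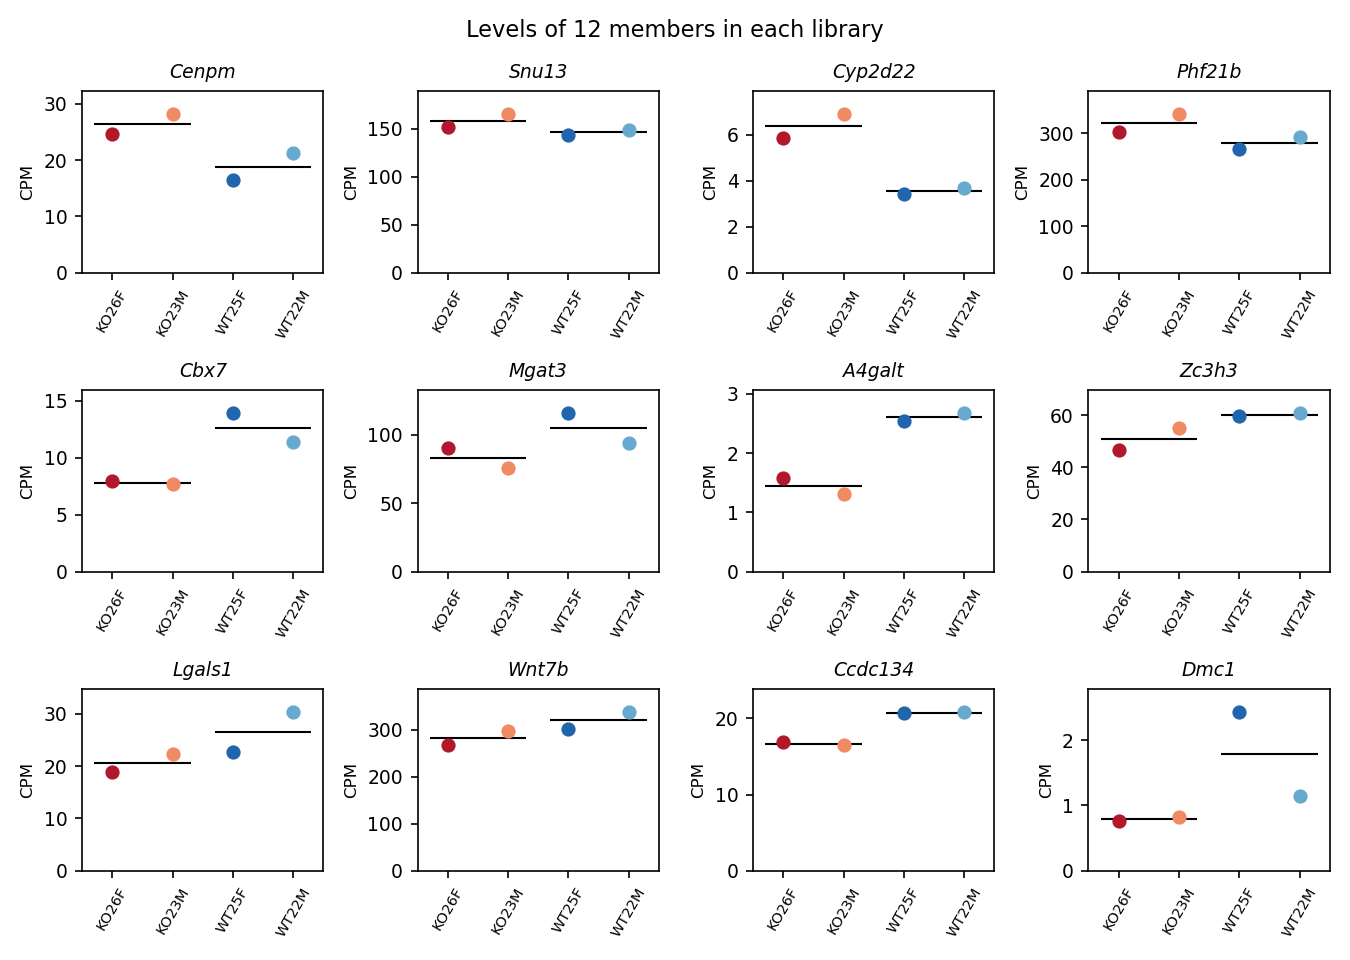
Level of 12 members in each library in TMM-scaled CPM (points; horizontal lines are the mean of each arm, n = 2 libraries each, vertical axes start at 0). In each of these members both KO libraries sit on the same side of both carriers, with WT25F apart from the other libraries for Dmc1.

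None of the genes nearest to Tcf20 passed the test. The 5 nearest members before Tcf20 began with Cyp2d26 (14.4 kb away), Cyp2d22, Smdt1 and Fam109b. After it came Nfam1 (85.6 kb away), Serhl, Rrp7a, Poldip3 and Cyb5r3. All 10 missed the threshold in both fits, and the arms overlapped in 8 of them, with Cyp2d22 among those apart. Poldip3, an mRNA export factor, was at 166 and 180 CPM in the KO libraries and 167 and 176 CPM in the carriers, a log2 fold change of 0.01 (SE 0.10). Smdt1, the small regulator of the mitochondrial calcium uniporter, shares 6785 bp on its own strand with Fam109b, so the values of both are uncertain.

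By distance, the median log2 fold change stayed between -0.04 and 0.03 in every window. It was 0.03 among the 22 members within 1 Mb before Tcf20 and -0.04 among the 15 within 1 Mb after it. It was -0.01 for the 23 members 1 to 3 Mb before, -0.04 for the 22 members 1 to 3 Mb after, -0.02 for the 112 members over 3 Mb before and -0.03 for the 32 over 3 Mb after. Within 1 Mb before Tcf20 the arms were apart in 50% of members, 6 with KO above and 5 below. That share was 25.9% to 43.5% in the other windows and 27.4% over all genes. At an unadjusted edgeR p under 0.05 without the block, that window had 4 members (18.2%). The other windows had 0% to 8.7%, and all genes 2.86%. Of the 4 calls with the block, 2 fell among the 22 members within 1 Mb before Tcf20, with Cenpm as 1 of them. Cbx7 and Mgat3 lay 1 to 3 Mb before it, and there was none after Tcf20. With the block 0.757% of all genes were called. No difference between windows was tested.

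Members that had both KO libraries above both carriers numbered 21 (9.29%) and those with both below numbered 52 (23%), where all 16252 genes had 2253 above and 2198 below. In all, the arms were apart in 73 members (32.3%) and in 27.4% of all genes. The counts on each side depended on the scaling. With each library scaled along the transcripts' GC content, 33 members were above (14.6%, against 15.1% of all genes) and 45 below (19.9%, against 15.1%). Whether GC content accounts for the split was not tested.

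Sorted by role, no list had a member past the threshold without the block, beside the 0.0615% of all genes above. The transcription and chromatin factors held 29 members, 16 higher and 13 lower, with a median log2 fold change of 0.02, and Cbx7 was among those called with the block. L3mbtl2, a Polycomb-type repressor of germline genes, had 29.6 and 34.9 CPM in the KO libraries against 37.0 and 37.4 CPM in the carriers (log2 fold change -0.21, SE 0.12). Zfp7, a zinc finger protein, had 21.1 and 20.2 CPM in the KO libraries against 18.3 and 15.98 CPM in the carriers (log2 fold change 0.27, SE 0.15). Its annotated span shares 13073 bp on its own strand with the protein-coding gene Gm49527, so its values are uncertain.

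The neuronal membrane and synapse list was the one most on one side, with 19 of 21 members lower and 2 higher and a median log2 fold change of -0.07, beside 49.3% of all genes lower. None of the 21 was called in either fit, and 9 (42.9%) had both KO libraries below both carriers, with 0 above, beside 2198 below and 2253 above of all 16252 genes. A lean to the lower side was not particular to this list. The 50 members in no list had 31 lower and 19 higher, with a median of -0.06. Among them 17 (34%) had both KO libraries below both carriers and 2 (4%) above. Sept3, a septin of neurons, had 1020 and 975 CPM in the KO libraries against 1051 and 1060 CPM in the carriers. Syngr1, a synaptic vesicle protein, had 110 and 113 CPM in the KO libraries against 118 and 119 CPM in the carriers, and its annotated span shares 535 bp with Rpl3. Cacna1i, a low-voltage calcium channel, had 17.9 and 16.4 CPM in the KO libraries and 21.9 and 18.2 CPM in the carriers (log2 fold change -0.23, SE 0.15). Kcnj4, a potassium channel, stood at 1.85 and 1.81 CPM in the KO libraries and 2.54 and 2.28 CPM in the carriers. Shank3, the scaffold of excitatory synapses, did not share the order: it was at 97.8 and 112 CPM in the KO libraries and 107 and 108 CPM in the carriers. The count of lower members in the neuronal list ranged from 14 without WT22M to 20 without KO23M or without WT25F. The telencephalon markers went the other way, with 10 of 12 higher and the summed levels given above, and their part in the result was not tested. In tissue pieces, fewer cells of a type and less RNA per cell cannot be told apart.

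**Figure D3:**
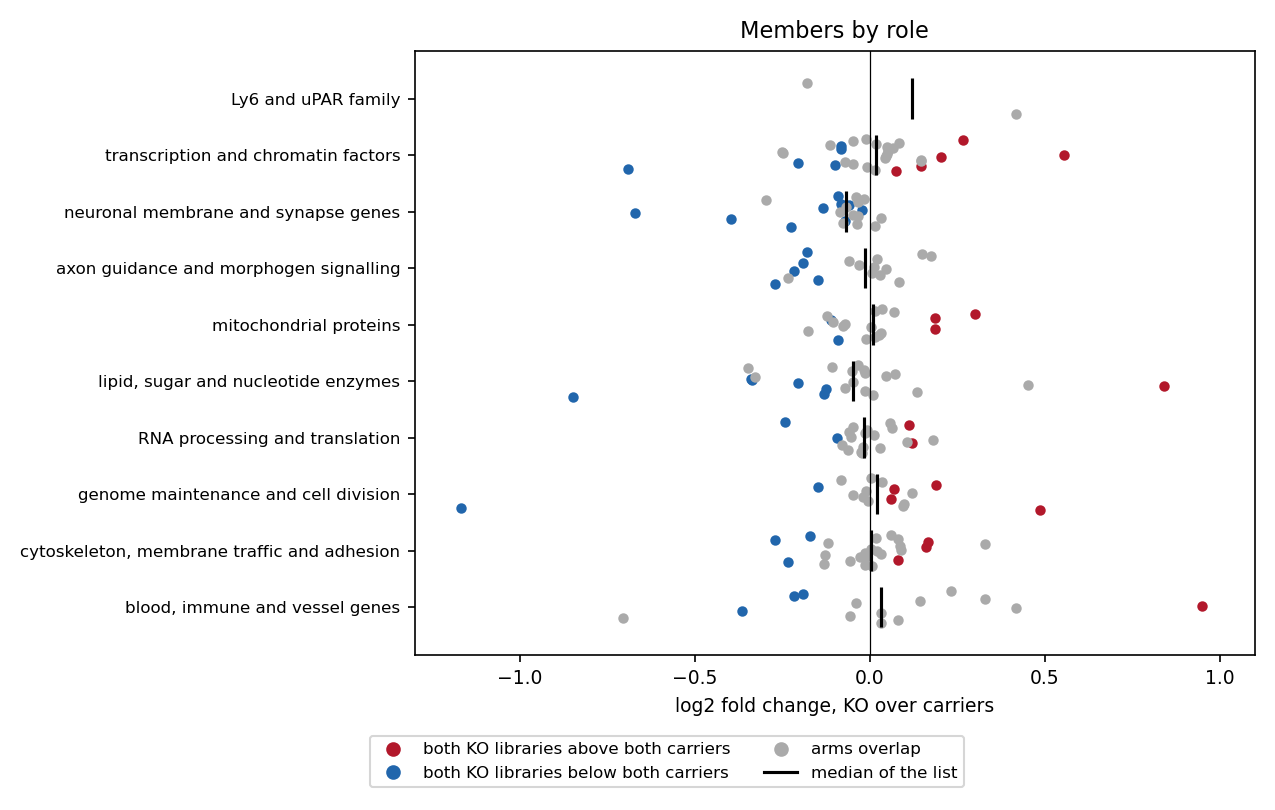
Log2 fold change of KO over carriers for the members of each role list (1 point a gene, black bars are list medians); red points have both KO libraries above both carriers and blue points both below. The neuronal list has 9 blue and 0 red points, and its median is -0.07.

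The axon guidance and morphogen list was evenly split by sign without the block, with 8 of 16 members higher. With the block 7 were higher and 9 lower, and 0 were called in either fit. In 5 members (31.2%) both KO libraries lay below both carriers, and in 0 above, beside 2198 below and 2253 above of all 16252 genes. At an unadjusted edgeR p under 0.05 there were 0 members without the block and 4 (25%) with it, against 2.86% and 6.82% of all genes. Wnt7b, a Wnt ligand that the neural tube sends to growing brain vessels, had 269 and 296 CPM in the KO libraries against 303 and 337 CPM in the carriers (log2 fold change -0.18, SE 0.10, edgeR adjusted p = 0.9997). Pdgfb, which draws pericytes to vessels, had 20.1 and 20.3 CPM in the KO libraries and 26.4 and 20.6 CPM in the carriers. Scube1, a secreted protein of the cell surface, had 131 and 121 CPM in the KO libraries and 101 and 123 CPM in the carriers, with the arms overlapping. Celsr1, a cadherin of planar cell polarity, also overlapped, at 185 and 174 CPM in the KO libraries and 149 and 189.5 CPM in the carriers.

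Among 14 blood, immune and vessel genes, 8 were higher, 6 lower and 0 called in either fit. Lgals1, a lectin of connective tissue and vessels, had 18.9 and 22.3 CPM in the KO libraries against 22.7 and 30.3 CPM in the carriers (log2 fold change -0.37, SE 0.16). It was -0.14 without WT22M and -0.56 without WT25F. Ncf4, a subunit of the phagocyte oxidase, had 1.19 and 0.767 CPM in the KO libraries and 0.441 and 0.569 CPM in the carriers, or 54 counts in all. The meningeal markers summed to 330 and 343 CPM in the KO libraries and 409 and 416 CPM in the carriers, with 0 of 8 higher and 3 called with the block, and the microglial markers to 70.0 and 76.0 CPM in the KO libraries and 78.0 and 98.6 CPM in the carriers, with 1 of 8 higher. Their part in the values of this list was not tested.

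The lipid, sugar and nucleotide enzymes had 16 of 22 members lower and 6 higher, with a median of -0.05 and 1 called with the block, Mgat3. The mitochondrial proteins had 10 of 18 higher and 0 called. Mief1, which recruits the fission protein Drp1 to mitochondria, had 49.1 and 41.7 CPM in the KO libraries against 39.7 and 40.1 CPM in the carriers (log2 fold change 0.19, SE 0.12). Tomm22, the receptor of the outer membrane import pore, had 73.7 and 83.95 CPM in the KO libraries against 86.3 and 84.0 CPM in the carriers. The RNA processing and translation list had 8 of 20 higher and 0 called. Snu13, a protein of the spliceosome, was at 152 and 165 CPM in the KO libraries and 144 and 149 CPM in the carriers, and Zc3h3, needed for mRNA export, at 46.6 and 55.1 CPM in the KO libraries and 59.7 and 60.7 CPM in the carriers (log2 fold change -0.24, SE 0.11).

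Genome maintenance and cell division genes were higher in 9 of 16 cases, with Cenpm the 1 called with the block. H1f0, a linker histone of cells that leave the cycle, was at 584 and 633 CPM in the KO libraries and 541 and 596 CPM in the carriers, so the arms overlapped. Tob2, an antiproliferative protein, had 38.6 CPM in both KO libraries against 32.2 and 35.6 CPM in the carriers, and Sun2, which ties the nuclear envelope to the cytoskeleton, had 123 and 132 CPM in the KO libraries against 136 and 148 CPM in the carriers. The cytoskeleton, membrane traffic and adhesion list had 13 of 24 higher and 0 called. Sh3bp1, a GTPase-activating protein, had 181 and 175 CPM in the KO libraries against 152 and 165 CPM in the carriers. Its annotated span shares 19366 bp with Gm49510 and 5599 bp with Pdxp on its own strand, so its values are uncertain. Ttll1, which adds glutamate chains to tubulin, had 88.0 and 83.5 CPM in the KO libraries against 99.8 and 93.4 CPM in the carriers. Only 2 of the 18 genes in the Ly6 and uPAR family list were members, Ly6h and Ly6c1. Ly6h, a neuronal surface protein, had 301 and 383 CPM in the KO libraries against 363 and 412 CPM in the carriers.

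Per kb of annotated exon, the members spanned a wide range around a median of 12.1 CPM per kb. Rpl8, a ribosomal protein, was highest at 653 CPM per kb, followed by H1f0 at 286, Atxn10 at 186, Sept3 at 155, Grina at 147, Mpped1 at 120 and Rbfox2 at 104. In CPM, Rpl8 had 783 and 987 in the KO libraries and 834 and 947 in the carriers, so the libraries of each arm were farther apart than the arms.

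WT22M and WT25F are single libraries, so their comparison borrowed its spread from the 2 KO libraries (a fit with KO, WT25F and WT22M as 3 groups) and takes it that all libraries vary alike. In that comparison 1 member passed, against 0.714% of all genes, and 153 of 226 members (67.7%) were higher in WT22M, with a median log2 fold change of 0.09 beside 0.00 for all genes. The same lean appeared inside the KO arm, where 159 members were higher in KO23M than in KO26F and the median log2 difference was 0.11. The members were rich in GC, with a median transcript GC content of 55.9% against 50.2% for all genes tested, and 187 of 226 fell in the 2 highest of 5 equal classes of GC content. In the highest class the members' median was 0.14 for KO23M over KO26F and 0.12 for WT22M over WT25F, and protein-coding genes outside the window had 0.13 and 0.11. In the lowest class, genes outside the window had -0.08 and -0.12, and only 3 members fell there. In that class the members had 0.07 and -0.04. The next higher classes held 9 and 27 members. There the members' medians for KO23M over KO26F were 0.05 and 0.004, against -0.08 and -0.04 outside the window. The signs thus differed in the class of 9, and in the class of 27 the members lay close to 0. For WT22M over WT25F the members had -0.05 and 0.01 in these classes, against -0.07 and -0.002 outside the window. Whether GC content accounts for the lean was not tested.

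**Figure D4:**
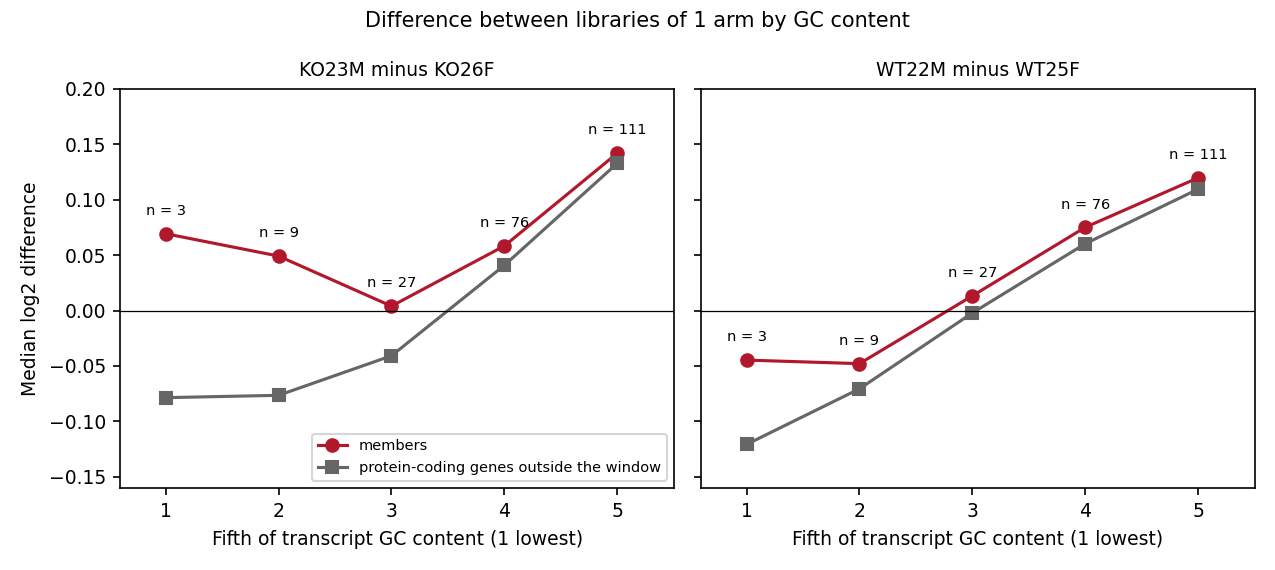
Median log2 difference between the libraries of 1 arm (vertical axis; KO23M minus KO26F on the left, WT22M minus WT25F on the right) by class of transcript GC content, 5 classes of equal size (horizontal axis, 1 is lowest), for the members and for protein-coding genes outside the window. In the highest class, which holds 111 members, both lines lie between 0.11 and 0.14; in the KO panel the members' line first falls, to 0.00 in class 3, while the other line starts below 0.

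In the same fit KO against WT25F called 1 member, against 0.345% of all genes. This comparison shares WT25F with the one of WT22M. Cbx7 reached an edgeR adjusted p of 0.0668 there and Cenpm 0.109. The authors' deposited tables, which set each other library against WT25F, mark 1 member for KO26F (1.96% of the genes listed are marked in all), 3 for KO23M (2.9%) and 2 for WT22M (3.62%). Dmc1 is marked as lower in each, with a log2 fold change of -1.67, -1.60 and -1.13 in the authors' deposited tables of KO26F, KO23M and WT22M. The authors' deposited table of KO23M also marks Gm29666 (-1.48), and that of WT22M marks Shisa8 (-1.52).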

How the data were processed

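The 4 libraries were prepared with TruSeq chemistry from total RNA, as the labels' protocols state. The submitters' processing notes list HTSeq 0.6.0, TopHat2 2.0.12 and Bowtie2 2.2.3 beside the build mm9. Neither a strand setting nor the handling of multi-mapped reads was given in these sources. Per the file headers, the authors deposited 3 tables of 1 library beside WT25F, with a raw whole-number count per gene and library. The authors also deposited CPM values, scaled to each library's total, in which 0 counts appear as 0.5 of a count. The deposited ratio and its log2 value compare these CPM values, and the deposited p-values come from a test these sources do not name.

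All 226 members were in GENCODE vM21 (GRCm38), 172 with the same start or end as deposited and 98 with both, so positions are given as deposited, on GRCm38. Tables were joined by gene identifier. Counts were tested with edgeR 4.0.16 (quasi-likelihood, robust, TMM, filterByExpr on the 2 arms) on 16252 genes with Benjamini-Hochberg adjustment over all of them, R 4.3.3 and Python 3.11.15. All 226 members passed the filter. Scripts were tested on simulated data. Alternatives were RLE size factors, DESeq2 1.42.0, no filter, a filter on 1 CPM in at least 2 libraries, a block on the title letter and each library left out; an offset along GC content was added after the data were seen.

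The numbers in the titles do not pair the libraries, and the letters follow sex. Over all genes tested, the difference between the libraries of the KO arm and that between the carriers (F minus M) correlated at 0.254, with 2 pairs. Counting intervals are exact binomial at 95% and cover counting error only. Exon length and GC content come from GENCODE vM21 transcripts.

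Members and lists were chosen with earlier results of these data known. Named genes are those called in either fit, the 8 higher and 8 lower members with the largest log2 fold change among those whose arms are apart and whose mean log2 CPM reaches 1, the 5 nearest on each side of Tcf20, those called in WT22M against WT25F and up to 4 with the smallest p in each list. Apobec3, Atxn10, Celsr1, Grina, H1f0, Mpped1, Ppp6r2, Rbfox2, Rpl8, Sept3, Shank3, Shisa8, Syngr1 and Zfp41 were named after their values were seen. Some genes that meet these rules are not reported here.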

Additional observations from a re-analysis of the deposited data

Results flagged for a closer look

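For 5 members the KO library and the carrier of the same title letter moved in opposite directions in the F and M pairs, each beyond its 95% counting interval. The share of all genes that did so is not given here, so these 5 have no background beside them. The intervals cover counting error only, so genes with many counts can pass on small ratios. The difference between the pairs was not tested, since each pair has 1 library a genotype. Values are log2 ratios of counts, KO26F over WT25F first and KO23M over WT22M after it, and their difference is the first minus the second. Apobec3, a cytidine deaminase that restricts retroviruses, had 0.46 and -0.33, a difference of 0.79. Zfp41, a zinc finger protein, had 0.24 and -0.23, a difference of 0.46. Celsr1 had 0.32 and -0.13, a difference of 0.45, with WT25F the lowest of the libraries. Ppp6r2, a regulatory subunit of protein phosphatase 6, had 0.11 and -0.20, a difference of 0.31. Rpl8 had -0.08 and 0.06, a difference of -0.14, on the largest counts of the members per kb.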

How the results depend on the processing

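With RLE, DESeq2, no filter, at least 1 CPM in 2 libraries or the GC offset, 0 members passed between KO and carriers, as in the reported test. The replicate block on the title letter called 4 members and 123 of all genes, and with the GC offset added 5 members (Phf21b the added one, edgeR adjusted p = 0.0305) and 128 of all genes, which is 0.788%. The block rests on the letter in the titles, since the labels give no shared litter or day. The GC offset alone called 5 of all genes. Leaving out each library in turn gave 0 to 1 members (1 without WT22M) and 42 to 110 of all genes, against 10 reported, and the members' median log2 fold change ranged from -0.079 (without WT25F) to 0.018 (without KO26F). The count of members on the lower side ranged from 105 (without KO26F) to 168 (without WT25F), and was 113 with the GC offset.

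For KO against WT25F, no filter gave 0 members and the spread of the 2-arm fit gave 0, against 1 reported. For WT22M against WT25F, DESeq2, no filter and the spread of the 2-arm fit gave 0 each, against 1 reported. The causes were not tested. Leaving out a KO library there leaves no residual degrees of freedom, so those alternatives gave no test.

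Of 60 members followed over the alternatives, these changed sign when 1 library was left out, given as the range of log2 fold changes: Apobec3 -0.24 to 0.36, Celsr1 -0.083 to 0.27, Cyb5r3 -0.17 to 0.020, Cyp2d26 -0.13 to 0.97, Fam109b -0.11 to 0.63, Nfam1 -0.16 to 0.074, Poldip3 -0.047 to 0.066, Ppp6r2 -0.17 to 0.076, Rpl8 -0.19 to 0.15, Rrp7a -0.17 to 0.060, Shank3 -0.13 to 0.057, Shisa8 -0.85 to 0.62 and Zfp41 -0.22 to 0.22. Rpl8 also changed sign with the GC offset (0.011) and with the replicate block and GC offset (0.0069). Over 11 alternatives the adjusted p of Cbx7 ranged from 0.0162 to 1, that of Cenpm from 0.00841 to 1 and that of Mgat3 from 0.00356 to 1.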
